A study of Mus musculus with 56 samples.

Results

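The 36 genes described here are genes of the integrated stress response, defined by a list of names: the transcription factors ATF4 and CHOP with their partners, their feedback genes, and their amino acid and one-carbon targets. They were taken from 47937 genes listed in each of 2 tables of gene counts, from RNA sequencing of mouse CD4+ T cells that were activated and polarized for 4 days into TH1, TH2, TH17 and Treg cells. All 36 were found in both tables, and 35 passed the filter on low counts in each. The study asked what loss of polyamine synthesis, or of the hypusine made from it, does to T helper cell subsets. Cells came from the spleen and lymph nodes of C57BL/6 mice, and the groups were Cre-negative WT cells and cells with Cre expressed from the CD4 promoter on an Odc flox/flox or a Dohh flox/flox background, each polarized into the 4 subsets. The CD4 promoter is active from an early thymic stage, so that Cre acts in T cells before they are isolated, and in CD8 T cells as well as in CD4+ T cells. Controls were littermates of the same age and sex, typically 6 to 10 weeks old, and the alleles remove exons 9 to 11 of Odc and exons 2 to 4 of Dohh. The Odc table held 16 WT and 15 Odc-/- libraries, 4 for each genotype and subset except 3 Odc-/- TH2 libraries (replicates 2, 3 and 4). The Dohh table held 12 WT and 12 Dohh-/- libraries, 3 for each genotype and subset. The labels name replicates without saying whether each is a separate mouse, so p-values measure the spread between these libraries, which may be partly technical.

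The integrated stress response begins when 1 of several kinases, each tuned to a different stress such as lack of amino acids or unfolded protein, phosphorylates the initiation factor eIF2. Most translation then slows, while the mRNA of ATF4 is translated more, and ATF4 pairs with C/EBP family proteins on composite sites in its target genes to turn on amino acid synthesis, amino acid import and tRNA charging. CHOP (Ddit3), TRIB3 and GADD34 (Ppp1r15a) close the loop, the first by promoting cell death under lasting stress, the others by restraining ATF4 and eIF2 phosphorylation. ODC makes putrescine, the first polyamine, and DOHH completes hypusine, an amino acid derived from the polyamine spermidine that is found in the translation factor eIF5A. ATF4 activity is set mainly at translation, which the mRNA levels given here do not measure.

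Libraries of the Odc table held 5905374 to 9145214 counts and 6572148 to 12576933 were held by those of the Dohh table. Where a gene has no count, up to 3 counts are possible at 95% confidence, or 0.31 to 0.50 CPM and 0.23 to 0.47 CPM (for counting error only). Counts were summed over all exons of a gene, which include exons outside the floxed ones. Odc1 mRNA was accordingly no check on the labels, with log2 fold changes of -0.40 to 0.26 in Odc-/- cells, and Dohh mRNA was higher in TH1, TH2 and Treg cells of both Dohh-/- (1.10 to 1.43) and Odc-/- cells (1.11 to 1.26), 47.5% of its exon length being shared with an overlapping gene. Odc-/- and Dohh-/- therefore mean libraries labelled so. All 10 T cell markers were detected in every library. Their summed level was lower without overlap in Odc-/- TH1 (3703 to 4258 against 4884 to 5697 CPM), Odc-/- TH2 (2610.3 to 2955 against 3910 to 4447 CPM), Dohh-/- TH2 (2865 to 3794 against 4128 to 4731 CPM) and Dohh-/- TH17 cells (3702 to 5141 against 5153 to 5239 CPM). The sum of 12 cell cycle genes was 2120 to 4489 CPM in the Dohh-/- libraries against 1427 to 1789 CPM in WT, and was higher without overlap in Odc-/- TH1 and TH2 cells. The part of either in the results was not tested. In WT cells Tbx21 was highest in TH1, Gata3 in TH2 and Foxp3 in Treg cells. In the Odc table WT replicate 4 lay nearer to the deficient libraries, and Odc-/- replicate 1 nearer to WT, in several members. In the Dohh table Dohh-/- TH1 replicate 3 lay nearer to WT than its group. Of the members, 10 share some exon length with another gene and the 4 with the most are Slc6a9 (30.2%), Cebpb (20.7%), Ddit3 (10.9%) and Psph (10.4%), with genes on the other strand and, for Ddit3, also with a second gene model of the same name. Their counts carry that uncertainty. Markers of other cell types moved with genotype. The summed level of 12 myeloid markers was 22.2 to 55.7 CPM in WT and 53.4 to 630 CPM in Odc-/- TH17 cells, 23.2 to 49.7 CPM in WT and 112 to 807 CPM in Odc-/- Treg cells, 40.3 to 42.9 CPM in WT and 597, 9011 and 11925 CPM in Dohh-/- TH17 cells, and 28.7 to 32.2 CPM in WT and 371, 4470 and 4980 CPM in Dohh-/- Treg cells, in replicate order. In Dohh-/- TH2 cells, the group with the most members called higher, the sums were 30.3, 852 and 107 CPM against 22 to 31.6 CPM in WT, and 9 of the 11 myeloid markers tested were called higher. The 10 basophil and mast cell markers summed to 3.00 to 21.1 CPM in all WT libraries of the Odc table and 18.9 to 340 CPM in its deficient libraries, and to 3.16 to 6.87 CPM against 68.6 to 1320 CPM in the Dohh table, with no overlap within any subset. The sum of 8 B cell markers was higher without overlap in all 4 Odc-/- subsets, with 118 to 177 CPM against 89.2 to 107 CPM in TH17 and 499 to 697 CPM against 222 to 252 CPM in Treg cells. It was also higher without overlap in Dohh-/- TH17 (390 to 457 CPM against 253 to 265 CPM) and Treg cells (568 to 852 CPM against 281 to 295 CPM), lower in Dohh-/- TH1 (13.3 to 37.7 CPM against 51.3 to 68.2 CPM) and overlapping in Dohh-/- TH2 cells. The sum of 8 markers of CD8 T and NK cells was higher without overlap in Odc-/- Treg cells (339 to 495 CPM against 60.6 to 86.8 CPM), where 7 of the 8 were called higher, and in Odc-/- TH17 cells (255 to 338 CPM against 199 to 238 CPM), and overlapped in Odc-/- TH1 and TH2 cells. It was higher without overlap in all 4 Dohh-/- subsets, with 326 to 1018 CPM against 67.8 to 93.0 CPM in TH1, 73.3 to 178 CPM against 27.5 to 29.7 CPM in TH2, 532 to 765 CPM against 109 to 145 CPM in TH17 and 626 to 766 CPM against 49.6 to 70.1 CPM in Treg cells. Itgam was the myeloid marker at 0 in all Dohh-/- TH17 and Treg libraries, but 68.7% of its exon length is shared with a gene model on the same strand. Its 0 therefore does not show that the gene is silent. The CD4+ T cells had been enriched by negative selection, a step meant to remove such cells before culture. Their part in the results was not tested; in bulk RNA, a change in the share of a cell type and a change in RNA per cell cannot be told apart.

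Promoter sequences, 250 bases before to 50 after each start, were available from RefSeq (GRCm38.p6) for 31 of the 36 genes and were searched for TGATGNAA on both strands, the composite C/EBP and ATF site. It was found in 9 of the 31 (29.0%: Asns, Atf3, Chac1, Jdp2, Nupr1, Pycr1, Slc7a11, Trib3 and Vldlr), against 4.51% of the 27025 symbols with a window. The palindrome TGACGTCA of the CREB and ATF family, which does not overlap with it, was found in 1 member (Ppp1r15a, 3.23%) and in 2.03% of symbols. The list was made of ATF4, CHOP and their known targets, so a higher share of this site was in part built into it. The symbols were also not limited to genes tested here, and the contrast is no test of the members. A match describes letters and not a site in use, and a missing match says only that these letters are not in this window. The stretches below are those of the 6 matched genes with the largest mean change over the 8 comparisons of deficient with WT cells, because they hold genes that rose and a gene that fell. They are printed 5′ to 3′ on the strand of the gene, with the match or its reverse complement in capitals.
Slc7a11, chr3:50443613-50443719, minus strand: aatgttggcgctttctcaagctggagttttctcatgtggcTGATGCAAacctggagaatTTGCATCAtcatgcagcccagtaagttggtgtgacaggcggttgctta
Vldlr, chr19:27216780-27216867, plus strand: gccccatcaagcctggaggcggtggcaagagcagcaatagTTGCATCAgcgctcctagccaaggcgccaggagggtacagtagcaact
Asns, chr6:7693185-7693272, minus strand: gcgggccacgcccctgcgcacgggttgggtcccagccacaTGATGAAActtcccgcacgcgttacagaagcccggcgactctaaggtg
Nupr1, chr7:126625533-126625620, minus strand: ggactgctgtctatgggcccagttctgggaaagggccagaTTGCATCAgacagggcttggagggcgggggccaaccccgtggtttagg
Atf3, chr1:191183396-191183483, minus strand: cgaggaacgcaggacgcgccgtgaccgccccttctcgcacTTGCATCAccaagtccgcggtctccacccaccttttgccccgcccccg
Chac1, chr2:119351009-119351096, plus strand: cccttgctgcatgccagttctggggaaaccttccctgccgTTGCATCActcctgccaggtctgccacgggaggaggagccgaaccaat
Slc7a11 holds 2 matches, 1 on each strand, and of these 6 genes only Vldlr fell in every comparison in which it was called.

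In WT cells the members spanned a wide range of levels per length (RPKM, mean of the WT libraries of a subset). Ddit4, which encodes the mTORC1 inhibitor REDD1, was the most abundant, with 149 to 313 RPKM over the 4 subsets of the Odc table and 291 to 452 RPKM over those of the Dohh table. Atf4 lay at 116 to 143 RPKM and 97.2 to 157 RPKM. Slc7a11, the cystine importer, lay at 0.044 to 0.18 RPKM and 0.010 to 0.083 RPKM, and Gdf15, a secreted stress cytokine, at 0 to 0.038 RPKM and 0.031 to 0.071 RPKM. WT subsets differed in 14 members of the Odc and 19 of the Dohh table, against 33.2% and 26.4% of all genes tested (edgeR's quasi-likelihood test, adjusted p below 0.05 and a largest log2 difference above 1). The 10 members that differed in both were Atf3, Cth, Ddit3, Gpt2, Jdp2, Nupr1, Phgdh, Pycr1, Sesn2 and Stc2, and 5 of them were lowest in TH17 cells in both tables. Nupr1 was highest in WT Treg cells (8.20 and 12.4 RPKM, against at most 2.69 RPKM in another subset), as was Phgdh (85.0 and 88.1 RPKM, against at most 58.4 RPKM).

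The 8 comparisons of deficient with WT cells gave 111 calls among 280 tests of members, at a change of more than 2-fold and an adjusted p below 0.05. Calls were 21 higher and 17 lower of 140 tests in Odc-/- cells and 57 higher and 16 lower of 140 in Dohh-/- cells. In Odc-/- cells the members called higher and lower, of 35 tested, were 4 and 3 in TH1 (10.2% and 11.3% of all genes tested were called in these directions), 7 and 3 in TH2 (11.5% and 13.6%), 5 and 5 in TH17 (8.35% and 7.21%) and 5 and 6 in Treg cells (13.9% and 10.1%). The median log2 fold change of the members was 0.26, 0.31, 0.09 and -0.01 in that order, and that of all genes 0.02, 0.00, 0.05 and 0.07. In Dohh-/- cells they were 12 and 2 in TH1 (14.8% and 14.2% of all genes), 21 and 2 in TH2 (14.3% and 11.6%), 9 and 8 in TH17 (17.3% and 14.1%) and 15 and 4 in Treg cells (17.5% and 15.2%). Here the members' median was 0.65, 1.19, 0.46 and 0.73, and that of all genes 0.01, 0.02, 0.01 and 0.03. The counts of higher members thus lay above the share of all genes in Dohh-/- TH1, TH2 and Treg cells and, with all libraries, near it in Odc-/- TH1 and Treg cells. In Odc-/- TH2 and TH17 and Dohh-/- TH17 cells they lay above it by less. The counts of lower members lay above the share of all genes in Odc-/- TH17 and Treg and Dohh-/- TH17 cells, and below it in the other comparisons. Without WT replicate 4 and Odc-/- replicate 1, an alternative added after the data were seen, the Odc counts were 13 in TH1 (7 higher, 6 lower), 13 in TH2 (9 and 4), 14 in TH17 (7 and 7) and 17 in Treg cells (10 and 7). Without WT replicate 4 alone, the members higher and lower were 7 and 3, 8 and 2, 7 and 6, and 8 and 5, in that order. Without Odc-/- replicate 1 alone, they were 4 and 6, 7 and 3, 5 and 8, and 5 and 10. In the fits without both, 13.7%, 13.2%, 11.2% and 16.2% of all genes were called higher and 15.2%, 14.5%, 10.0% and 12.3% lower. Both replicates were picked out on values of the members themselves, so that leaving them out favours calls among the members. This also holds for single genes: values and adjusted p-values given below without these libraries show only how far each gene depends on them. The shares of all genes are therefore no yardstick here, and no result about the members is drawn from these counts. Without the Dohh-/- libraries with the highest myeloid markers (replicates 2 and 3), which leaves 1 deficient library each, they were 13 in TH17 (7 and 6) and 17 in Treg cells (14 and 3). Of all genes, 10.1% and 11.1% were then called higher and 9.98% and 12.5% lower. In those fits, and wherever only replicate 1 is kept below, the lone library is assumed to vary like the libraries of the other groups, so that the p-value says nothing of the spread of its own group.

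**Figure D1:**
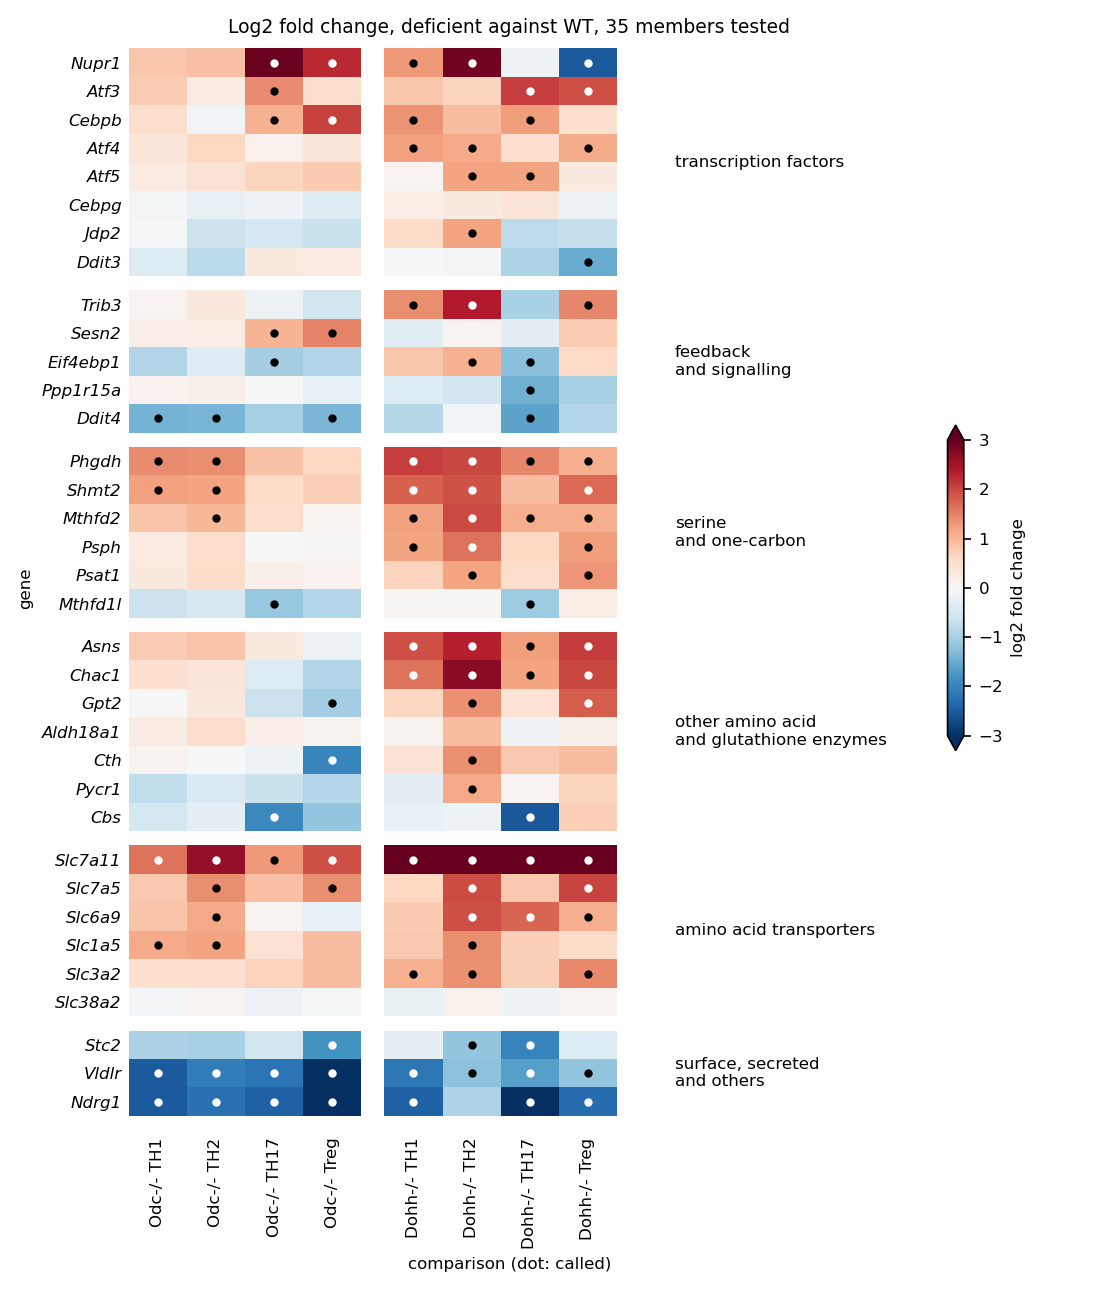
Log2 fold change of deficient over WT cells for the 35 tested genes (vertical axis, ordered by role; Gdf15 was not tested and is not drawn) in the 8 comparisons (horizontal axis); colour gives the log2 fold change on a scale centred at 0 and capped at -3 and 3, and a dot marks a call. Slc7a11 is higher and Vldlr lower in all 8 columns, and the Dohh-/- TH2 column holds the most higher calls, 21.

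Over the 8 comparisons 32 of the 36 genes were called at least once, 20 of them only higher, 8 only lower and 4 (Nupr1, Gpt2, Eif4ebp1 and Cth) in both directions. Of all 14812 genes tested in at least 1 table, 59.9% were called at least once, 29.1% only higher, 25.5% only lower and 5.35% in both directions, against 91.4%, 57.1%, 22.9% and 11.4% of the 35 members tested. The 35 were tested in both tables, while some of the 14812 were tested in only 1. Those had fewer comparisons in which to be called, which lowers the share of all genes called at least once. Cebpg, a C/EBP partner of ATF4, Aldh18a1, the first enzyme of proline synthesis from glutamate, and Slc38a2, the neutral amino acid transporter SNAT2, were tested and called in none. Their log2 fold changes ran from -0.38 to 0.38, from -0.15 to 0.91 and from -0.21 to 0.16. Gdf15 was not tested: it was at 0 in 26 of the 31 libraries of the Odc table and highest in Dohh-/- TH2 cells, with 0.944, 2.75 and 0.848 CPM against 0.165, 0 and 0.112 CPM in WT. Log2 fold changes below are given ± SE, adjusted p-values (edgeR, quasi-likelihood, Benjamini-Hochberg) are over all genes tested, and levels are given library by library, in replicate order, as CPM on TMM-scaled totals.

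Atf4 mRNA was called higher, by more than 2-fold, in Dohh-/- TH1, TH2 and Treg cells, and had an adjusted p below 0.05 with smaller differences in Odc-/- TH1, TH2 and Treg cells. The libraries held 676, 799.9 and 604 CPM in Dohh-/- TH1 cells and 285, 273 and 328 CPM in WT (1.23 ± 0.18, adjusted p = 1.4e-05). In TH2 cells the values were 780.4, 787 and 879 CPM against 365, 387 and 363 CPM (1.14 ± 0.18, adjusted p = 3.91e-05). In Treg cells they were 443, 451 and 589 CPM against 224, 253 and 211 CPM (1.11 ± 0.18, adjusted p = 3.19e-05). No deficient library overlapped with WT in these 3 subsets, although the Treg call was lost without WT replicate 3 (0.99) or Dohh-/- replicate 3 (0.92), and the value was 0.92, below 2-fold, with only replicate 1, the one of low myeloid markers, kept. In Dohh-/- TH17 cells Atf4 stood at 277, 259 and 446 CPM against 234, 222 and 234 CPM (0.51 ± 0.18), with the third replicate well above the others. There too no deficient library overlapped with WT, and the difference was below 2-fold. In Odc-/- TH1 cells the values were 408, 395, 423 and 438 CPM against 296, 284, 349 and 355 CPM, and in TH2 cells 489, 568 and 509 CPM against 309, 327, 336 and 376 CPM. Here too every deficient library lay above every WT library, but the differences of 0.38 ± 0.13 (adjusted p = 0.0138) and 0.63 ± 0.14 (adjusted p = 0.000314) were below 2-fold. In Odc-/- TH17 cells Atf4 was at 361, 289, 316 and 276 CPM against 246, 269, 262 and 335 CPM, and in Treg cells at 364, 347, 371 and 322 CPM against 225, 264, 225 and 376 CPM, where WT replicate 4 was above every deficient library and the difference was 0.37 ± 0.13 (adjusted p = 0.0154), or 0.56 (adjusted p = 1.42e-05) without the WT replicate 4 and 0.35 (adjusted p = 0.0316) without the Odc-/- replicate 1 libraries.

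Ddit3, which encodes CHOP, was called once, and lower. It fell in Dohh-/- Treg cells, to 23.8, 17.6 and 9.17 CPM from 42.4, 57.0 and 45 CPM in WT (-1.51 ± 0.28, adjusted p = 0.000151), a subset in which Atf4 was called higher. In Dohh-/- TH17 cells the values were 17.3, 17.0 and 24.3 CPM against 34.2, 36.5 and 40.2 CPM (-0.92 ± 0.28, adjusted p = 0.00919), which is below 2-fold. It passed 2-fold without Dohh-/- replicate 3 (-1.09, adjusted p = 0.00981) and with only replicate 1 kept (-1.08, adjusted p = 0.0315). In Dohh-/- TH1 and TH2 cells, where Atf4 rose, the Ddit3 libraries overlapped, with 38.8, 74.3 and 39.9 CPM against 50.2, 44.4 and 59.0 CPM and 113, 87.2 and 64.9 CPM against 86.0, 101 and 88.3 CPM. Ddit3 in the Odc table was called in no subset. Its values were 41.8, 21, 27.2 and 25.9 CPM against 38.7, 37.1, 48.2 and 29.3 CPM in TH1 cells (-0.41 ± 0.17) and 21.2, 36.8 and 27.3 CPM against 47.9, 53.5, 56.1 and 41.3 CPM in TH2 cells (-0.80 ± 0.18). In TH17 cells they were 26.4, 25.8, 25.6 and 27.7 CPM against 20.4, 22, 22.5 and 20.8 CPM (0.30 ± 0.17), and in Treg cells 31.1, 31.9, 24.2 and 32.6 CPM against 26.1, 23.2, 27.9 and 21.6 CPM (0.28 ± 0.17). All Odc-/- libraries were below WT in TH2 cells and above WT in TH17 cells.

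**Figure D2:**
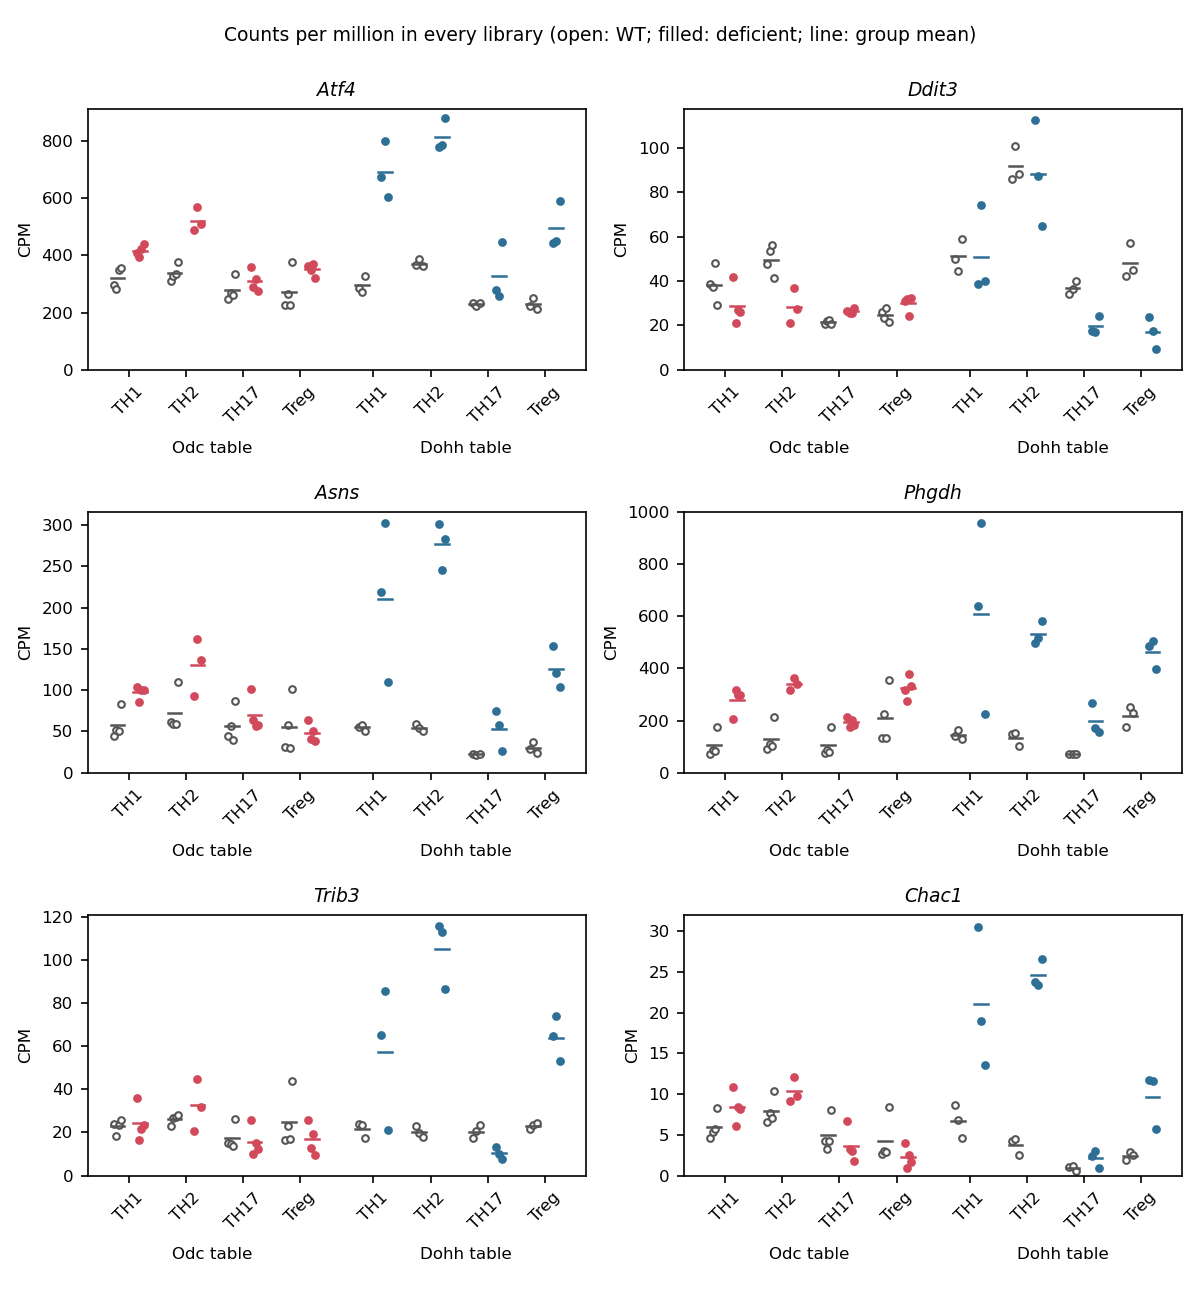
Level of Atf4, Ddit3, Asns, Phgdh, Trib3 and Chac1 in every library (CPM, linear axis from 0), by table and subset, with 1 point a library (open, WT; filled, deficient) and a line at the group mean. In Dohh-/- TH2 cells Asns reached 246 to 301 CPM with 50.9 to 58.4 CPM in WT, while Ddit3 overlapped with WT.

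Among the other transcription factors, Atf3, an ATF family member induced by stress, rose in Odc-/- TH17 cells (1.41 ± 0.30, adjusted p = 0.000425), Dohh-/- TH17 cells (2.06 ± 0.27, adjusted p = 4.14e-06) and Dohh-/- Treg cells (1.94 ± 0.27, adjusted p = 6e-06). Atf5, known for the mitochondrial stress response, rose in Dohh-/- TH2 cells (1.2 ± 0.24, adjusted p = 0.000484) and TH17 cells (1.21 ± 0.25, adjusted p = 0.000475), the latter call being lost without Dohh-/- replicate 3 (0.71), the replicate with the highest myeloid markers, and standing at 0.75 (adjusted p = 0.0279) without replicates 2 and 3. Cebpb, a C/EBP family member that is abundant in myeloid cells, rose in 4 comparisons, most in Odc-/- Treg cells (2.06 ± 0.38, adjusted p = 6.06e-05, and 3.04 without WT replicate 4). Its other 3 calls, in Odc-/- TH17 (1.07 ± 0.39), Dohh-/- TH1 (1.36 ± 0.43) and Dohh-/- TH17 cells (1.26 ± 0.42), were each lost in at least 1 fit without a library: in Odc-/- TH17 cells without WT replicate 1 (0.93), WT replicate 2 (0.96), WT replicate 3 (1.06, adjusted p = 0.0534), Odc-/- replicate 2 (0.96) or Odc-/- replicate 3 (1.02, adjusted p = 0.0556), in Dohh-/- TH1 cells without Dohh-/- replicate 2 (0.87), and in Dohh-/- TH17 cells without WT replicate 2 (1.12, adjusted p = 0.0637), WT replicate 3 (1.14, adjusted p = 0.0639) or Dohh-/- replicate 3 (0.83). In Dohh-/- TH17 cells without replicates 2 and 3, those with the highest myeloid markers, it stood at 0.22 (adjusted p = 0.783). Jdp2, a repressor of the AP-1 family, rose in Dohh-/- TH2 cells (1.22 ± 0.24, adjusted p = 0.000412) and lay between -0.78 and 0.58 elsewhere.

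Nupr1, a small nuclear stress protein, changed the most among the transcription factors by mean log2 fold change, and in opposite directions in the Treg cells of the 2 tables. In Odc-/- Treg cells it rose to 38.1, 155, 55.7 and 148 CPM from 14.5, 20.05, 11.8 and 36.1 CPM (2.27 ± 0.45, adjusted p = 0.000149). In Dohh-/- Treg cells it fell to 4.64, 6.87 and 4.84 CPM from 25.8, 38.4 and 29.4 CPM (-2.51 ± 0.45, adjusted p = 9.66e-05). The groups did not overlap in either, and the difference was -2.78 with only the Dohh-/- library of low myeloid markers kept. In TH17 cells Nupr1 rose in the Odc table, with 8.77, 32.7, 13.5 and 21.5 CPM against 1.39, 1.40, 1.24 and 5.81 CPM (2.96 ± 0.56, adjusted p = 0.000182, and 3.82 without WT replicate 4), and overlapped in the Dohh table, with 1.72, 4.90 and 7.4 CPM against 5.89, 3.71 and 5.66 CPM. In TH2 cells it rose in the Dohh table, with 62.0, 43.9 and 24.3 CPM against 5.19, 7.82 and 4.26 CPM (2.91 ± 0.45, adjusted p = 3.36e-05), and stood at 9.41, 19.0 and 9.43 CPM against 4.04, 6.00, 7.08 and 9.91 CPM in the Odc table. In TH1 cells it was called higher in Dohh-/- cells, with 9.20, 15.3 and 3.64 CPM against 3.48, 3.69 and 4.15 CPM (1.3 ± 0.46), a call that was lost without WT replicate 1 (1.25, adjusted p = 0.0664), WT replicate 2 (1.29, adjusted p = 0.0567) or Dohh-/- replicate 2 (0.78). In Odc-/- TH1 cells the values of 5.59, 7.01, 5.35 and 10.6 CPM overlapped with WT at 3.61, 2.28, 4.5 and 5.77 CPM. The effect on Nupr1 differed between subsets in the Dohh table (adjusted p = 3.1e-05).

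Of the feedback and signalling genes, Trib3, a pseudokinase that binds ATF4, rose in 3 Dohh-/- subsets and in no Odc-/- subset. In Dohh-/- TH2 cells it was at 116, 113 and 86.7 CPM against 23.2, 19.6 and 17.9 CPM (2.38 ± 0.32, adjusted p = 7.08e-06). In Treg cells it was at 64.7, 74.0 and 53.2 CPM against 21.8, 23.6 and 24.3 CPM (1.46 ± 0.31, adjusted p = 0.000567). In TH1 cells 2 replicates lay above WT and the third lay within the WT range, with 65.4, 85.7 and 21 CPM against 24.1, 23.5 and 17.3 CPM (1.40 ± 0.31, adjusted p = 0.000978). In Dohh-/- TH17 cells all 3 libraries were below WT, at 13.4, 9.80 and 7.71 CPM against 17.3, 20.6 and 23.3 CPM (-0.97 ± 0.33, adjusted p = 0.0167), which is just under 2-fold. The Trib3 effect thus differed between subsets in the Dohh table (adjusted p = 0.000157). In the Odc table the groups overlapped in every subset, with 36.1, 16.7, 21.5 and 23.4 CPM against 24.1, 18.2, 23.7 and 25.6 CPM in TH1 cells. TH2 cells held 20.7, 45 and 32.0 CPM against 23.0, 26.9, 27.1 and 28.1 CPM. TH17 cells held 25.9, 9.99, 15.0 and 12.1 CPM against 15.0, 14.8, 13.8 and 26.1 CPM, and Treg cells 25.6, 12.7, 19.3 and 9.51 CPM against 16.3, 22.9, 16.8 and 43.9 CPM. Replicate 1 was the highest deficient library in TH1, TH17 and Treg cells, and replicate 4 the highest WT library in all 4 subsets.

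Ddit4 fell in Odc-/- TH1 cells, to 329.9, 143, 184 and 169 CPM from 554, 603, 636 and 405 CPM (-1.41 ± 0.21, adjusted p = 7.71e-06). It fell in TH2 cells, to 158, 258 and 193 CPM from 486, 639, 599 and 409 CPM (-1.39 ± 0.23, adjusted p = 1.9e-05), and in Treg cells, to 104, 98.6, 91.3 and 114 CPM from 220.5, 319, 245 and 264 CPM (-1.36 ± 0.21, adjusted p = 5.61e-06). In Odc-/- TH17 cells the difference was -0.99 ± 0.21 (adjusted p = 0.000466), a shade under 2-fold, with 186, 112, 128 and 134 CPM against 267, 312, 299 and 235 CPM. It passed 2-fold without the WT replicate 4 libraries (-1.06, adjusted p = 0.000309), the Odc-/- replicate 1 libraries (-1.16, adjusted p = 1.13e-05) or both (-1.23, adjusted p = 6.63e-07). All Odc-/- libraries lay below all WT libraries in each subset. In the Dohh table the deficient replicates were spread more widely. Ddit4 was called in TH17 cells, at 474, 250.01 and 63.6 CPM against 767, 749 and 866 CPM (-1.59 ± 0.50, adjusted p = 0.0118). The value was -2.34 without the first of these replicates and, in that replicate alone, the one of low myeloid markers, -0.74 (adjusted p = 0.166). The other Dohh-/- subsets held 315, 181 and 346 CPM against 530.0, 471 and 529 CPM in TH1 cells and 927, 516 and 349 CPM against 629.6, 674 and 624 CPM in TH2 cells. Treg cells held 554, 296 and 148 CPM against 568, 658 and 602 CPM (-0.87 ± 0.49).

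Eif4ebp1, the inhibitor of the cap-binding factor eIF4E, was called in both directions within the Dohh table. It rose in TH2 cells, to 335, 266 and 233 CPM from 147, 144 and 106 CPM (1.07 ± 0.33, adjusted p = 0.0119), and this call was lost without WT replicate 3 (0.93) or Dohh-/- replicate 1 (0.88). It fell in TH17 cells, to 60.5, 46.7 and 36.1 CPM from 108, 112 and 123 CPM (-1.25 ± 0.34, adjusted p = 0.00386), and with the first replicate alone the value was -0.91 (adjusted p = 0.159). The effect differed between the Dohh-/- subsets (adjusted p = 0.00405). Dohh-/- TH1 cells held 199, 314 and 76.4 CPM against 116, 121 and 92.6 CPM, and Treg cells 134, 116 and 65.6 CPM against 64.2, 78.2 and 67.4 CPM, overlapping in both. In the Odc table all 4 values were negative. Eif4ebp1 fell in Odc-/- TH17 cells, to 89.8, 37.7, 58.4 and 44.2 CPM from 107, 134, 114 and 115 CPM (-1.03 ± 0.26, adjusted p = 0.00213), a call lost without WT replicate 2 (-0.96), Odc-/- replicate 2 (-0.87) or Odc-/- replicate 4 (-0.92). In TH1 cells it was at 157, 58.1, 71.6 and 80.2 CPM against 164, 153, 193 and 173 CPM (-0.90 ± 0.25). TH2 cells held 97.9, 164 and 122 CPM against 142, 173, 163 and 181 CPM, and Treg cells 55.2, 26.0, 39.4 and 30.9 CPM against 59.7, 72.2, 68.7 and 83.2 CPM (-0.91 ± 0.26). All Odc-/- Treg libraries were below WT, and the value passed 2-fold without the Odc-/- replicate 1 libraries (-1.14, adjusted p = 4.66e-06) and without both these and the WT replicate 4 libraries (-1.06, adjusted p = 4.11e-05), and was -0.82 (adjusted p = 0.0243) without the WT replicate 4 libraries alone. In TH1 cells it was replicate 1 that reached the WT range, and without the replicate 1 libraries the value was -1.29 (adjusted p = 7.99e-07), against -0.89 (adjusted p = 0.0133) without the WT replicate 4 libraries and -1.28 (adjusted p = 1.9e-06) without both.

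Ppp1r15a fell in Dohh-/- TH17 cells (-1.45 ± 0.18, adjusted p = 1.78e-06), with -0.97 in Dohh-/- Treg cells and -0.55 to 0.17 in the other 6 comparisons. Sesn2, a leucine sensor that restrains mTORC1, rose in Odc-/- Treg cells (1.49 ± 0.19, adjusted p = 3.07e-07) and TH17 cells (1.02 ± 0.20, adjusted p = 0.000177), the latter call being lost without WT replicate 1 (0.95), WT replicate 3 (0.99), Odc-/- replicate 2 (0.78) or Odc-/- replicate 4 (0.96). It was called in no Dohh-/- subset.

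Of the 6 serine and one-carbon enzymes, 5 were called higher in Dohh-/- TH2 cells, where 14.3% of all genes were, and Mthfd1l was called only lower. Phgdh, the first enzyme of serine synthesis from glycolysis, rose in all 4 Dohh-/- subsets and in Odc-/- TH1 and TH2 cells. In Dohh-/- TH1 cells it was at 639.6, 958 and 227 CPM against 141, 165 and 129.8 CPM (2.06 ± 0.33, adjusted p = 3.2e-05), the third replicate being closest to WT. In TH2 cells it was at 498, 515 and 584 CPM against 148, 150.3 and 101 CPM (2.0 ± 0.33, adjusted p = 5.5e-05). TH17 cells held 268, 172 and 155 CPM against 73.4, 70.8 and 73.0 CPM (1.45 ± 0.32, adjusted p = 0.000835). No Dohh-/- library overlapped with WT in any subset. Treg cells held 486, 506 and 399 CPM against 176, 254 and 227 CPM (1.08 ± 0.32, adjusted p = 0.00677), and this call was lost without WT replicate 1 (0.89) or Dohh-/- replicate 2 (0.96) and, at 1.11 (adjusted p = 0.0552), with only replicate 1 kept. In Odc-/- TH1 cells Phgdh was at 206, 316, 298 and 299.9 CPM against 72.2, 85.9, 82.7 and 176 CPM (1.43 ± 0.32, adjusted p = 0.000507), and in TH2 cells at 318, 364 and 341 CPM against 91.2, 111, 104 and 214 CPM (1.39 ± 0.33, adjusted p = 0.000932). The gap to WT replicate 4 was the smallest in both. In TH17 cells, with 212, 177, 202 and 184 CPM against 75.7, 86.6, 80.7 and 175 CPM, the difference was 0.89 ± 0.31, and 1.26 (adjusted p = 1.14e-06) without the WT replicate 4 libraries, 0.84 without the Odc-/- replicate 1 libraries and 1.21 without both. In Treg cells, with 316, 275, 380.4 and 332 CPM against 133, 223, 132 and 357 CPM, it was 0.62 ± 0.31, against 0.64 (adjusted p = 0.0994) without Odc-/- replicate 1, 1.0 (adjusted p = 5.9e-06) without WT replicate 4 and 1.01 (adjusted p = 2.49e-06) without both WT replicate 4 and Odc-/- replicate 1. These libraries were picked on values of the members, Phgdh among them, so no result is drawn from the values without them.

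Psat1 and Psph, which carry out the remaining steps of serine synthesis, were called in Dohh-/- cells and in no Odc-/- subset. Psat1 rose in TH2 (1.19 ± 0.22) and Treg cells (1.33 ± 0.22), and Psph in TH1 (1.2 ± 0.30), TH2 (1.63 ± 0.30) and Treg cells (1.25 ± 0.30). The Psph call in TH1 cells was lost without Dohh-/- replicate 1 (0.95). Shmt2, the mitochondrial enzyme that passes a carbon from serine to folate, rose in Odc-/- TH1 (1.22 ± 0.25) and TH2 cells (1.21 ± 0.26) and in Dohh-/- TH1 (1.78 ± 0.29), TH2 (1.90 ± 0.29) and Treg cells (1.73 ± 0.29). The next mitochondrial enzyme, Mthfd2, rose in all 4 Dohh-/- subsets, from 1.08 ± 0.15 in TH17 cells to 1.97 ± 0.15 in TH2 cells, and in Odc-/- TH2 cells (1.0 ± 0.18). The Odc-/- call lay at the threshold and was lost without WT replicate 1 (0.92), WT replicate 2 (0.92), WT replicate 3 (0.95), Odc-/- replicate 3 (0.99) or Odc-/- replicate 4 (0.98), the TH17 call without Dohh-/- replicate 1 (0.99), and the Treg call without WT replicate 1 (0.96). Mthfd1l, which follows Mthfd2 in the mitochondrial folate route, was called only in the other direction: lower in Odc-/- TH17 cells (-1.13 ± 0.19) and Dohh-/- TH17 cells (-1.09 ± 0.16). Those calls were lost without Odc-/- replicate 2 (-0.97) and without Dohh-/- replicate 3 (-0.87), and the Dohh-/- value was -0.76 with only replicate 1 kept. Mthfd1l was not lower throughout: its log2 fold change had the same sign in only 5 of the 8 comparisons. Its effect differed between the Dohh-/- subsets (adjusted p = 0.000817, edgeR's interaction test).

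Asns, asparagine synthetase, rose in all 4 Dohh-/- subsets. In TH1 cells it was at 219, 302 and 109.5 CPM against 55.6, 58.2 and 50.4 CPM (1.94 ± 0.31, adjusted p = 3.58e-05). In TH2 cells it was at 301, 246 and 283 CPM against 58.4, 54.5 and 50.9 CPM (2.34 ± 0.31, adjusted p = 6.3e-06), and in Treg cells at 153, 121 and 104 CPM against 28.3, 37.3 and 23.4 CPM (2.09 ± 0.31, adjusted p = 1.33e-05). All deficient libraries were above all WT libraries, by the least in TH17 cells, at 75.1, 57.8 and 26.0 CPM against 22.8, 21.2 and 22.5 CPM (1.26 ± 0.31, adjusted p = 0.00202). That call was lost without Dohh-/- replicate 1 (0.92). Asns in the Odc table was at 104, 86.0, 100.2 and 100.1 CPM against 44.1, 51.6, 50.4 and 83.6 CPM in TH1 cells (0.76 ± 0.32, adjusted p = 0.0441) and at 92.9, 161 and 137 CPM against 61.8, 59.1, 59.5 and 109 CPM in TH2 cells (0.85 ± 0.34, adjusted p = 0.0334), both under 2-fold. Without the WT replicate 4 libraries these values were 1.0 (adjusted p = 0.000854) and 1.11 (adjusted p = 0.000417), without the Odc-/- replicate 1 libraries 0.73 (adjusted p = 0.0553) and 0.85 (adjusted p = 0.0253), and without both 0.97 and 1.12. TH17 cells held 101, 63.2, 56.4 and 57.5 CPM against 44.4, 56.1, 39.5 and 86.8 CPM, and Treg cells 63.4, 40.7, 50.9 and 38.2 CPM against 31.0, 57.7, 30.0 and 101 CPM, with overlapping groups.

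Chac1, which degrades glutathione, rose in Dohh-/- TH1 cells, to 30.6, 18.9 and 13.6 CPM from 8.69, 6.87 and 4.60 CPM (1.64 ± 0.36, adjusted p = 0.000781). It rose in TH2 cells, to 23.8, 23.4 and 26.6 CPM from 4.2, 4.55 and 2.47 CPM (2.71 ± 0.38, adjusted p = 9.32e-06), and in Treg cells, to 11.7, 11.6 and 5.77 CPM from 1.96, 2.92 and 2.47 CPM (1.99 ± 0.38, adjusted p = 0.000204). These are 3 groups without overlap. In Dohh-/- TH17 cells the levels were near the floor and overlapped, with 2.43, 3.05 and 0.907 CPM against 1.05, 1.17 and 0.577 CPM (1.22 ± 0.45), and the call there was lost without WT replicate 1 (1.31, adjusted p = 0.0544), WT replicate 3 (0.99), Dohh-/- replicate 1 (1.15, adjusted p = 0.0668) or Dohh-/- replicate 2 (0.88) and, at 1.35 (adjusted p = 0.0689), with only replicate 1 kept. Chac1 in the Odc table was not called and its groups overlapped, with 10.9, 6.08, 8.44 and 8.12 CPM against 4.62, 5.41, 5.66 and 8.29 CPM in TH1 cells. TH2 cells held 9.14, 12.1 and 9.82 CPM against 6.61, 7.74, 7.08 and 10.3 CPM. TH17 cells held 6.64, 3.29, 3.00 and 1.82 CPM against 4.29, 3.28, 4.18 and 8.02 CPM. In Treg cells it was at 3.96, 0.964, 2.46 and 1.69 CPM against 2.65, 3.00, 2.88 and 8.39 CPM (-0.89 ± 0.41, adjusted p = 0.0614), which did not pass the test, and its log2 fold change was -1.30 (adjusted p = 0.00858) without the Odc-/- replicate 1 libraries, -0.33 (adjusted p = 0.424) without the WT replicate 4 libraries and -0.74 (adjusted p = 0.0249) without both.

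Gpt2, a mitochondrial alanine transaminase, and Cth, which makes cysteine from cystathionine, were called lower in Odc-/- Treg cells and higher in Dohh-/- cells. Gpt2 was at 10.3, 5.06, 5.05 and 4.69 CPM against 6.99, 11.4, 7.72 and 26.1 CPM in Odc-/- Treg cells (-1.05 ± 0.36, adjusted p = 0.0151). This call rested on WT replicate 4: without it the difference was -0.47 (adjusted p = 0.206), and the call was also lost without Odc-/- replicate 2 (-0.96), replicate 3 (-0.96) or replicate 4 (-0.94). In Dohh-/- Treg cells Gpt2 rose to 32.6, 22 and 15.4 CPM from 6.10, 6.08 and 7.58 CPM (1.82 ± 0.31, adjusted p = 5.01e-05), and in TH2 cells to 61.8, 55.8 and 50.6 CPM from 23.6, 22.8 and 18.2 CPM (1.38 ± 0.29, adjusted p = 0.000712). The Gpt2 groups overlapped in Odc-/- Treg cells and in all subsets not yet given. Those held 43.3, 52.4 and 20.8 CPM against 25.1, 28.4 and 20.5 CPM in Dohh-/- TH1 cells and 10.4, 7.31 and 4.83 CPM against 4.76, 6.24 and 5.66 CPM in TH17 cells. Odc-/- TH1 cells held 31.9, 26.2, 23.8 and 33.6 CPM against 23.8, 28.6, 23.2 and 39.1 CPM. Odc-/- TH2 cells held 27.2, 36.3 and 32.8 CPM against 25.1, 21.1, 23.7 and 32.9 CPM, and TH17 cells 13.7, 5.52, 7.49 and 5.33 CPM against 10.4, 11, 8.71 and 19.9 CPM.

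Cth fell in Odc-/- Treg cells to 3.96, 2.17, 2.20 and 1.69 CPM from 5.29, 11.2, 4.84 and 18.3 CPM (-1.98 ± 0.42, adjusted p = 0.000284), without overlap, and its Odc effect differed between subsets (adjusted p = 0.0156). In Dohh-/- TH2 cells it rose to 57.3, 35.5 and 23.0 CPM from 12.3, 16.5 and 16.3 CPM (1.36 ± 0.42, adjusted p = 0.0127), a call lost without WT replicate 1 (1.23, adjusted p = 0.0577) or Dohh-/- replicate 1 (0.92). In Dohh-/- Treg cells all 3 libraries lay above WT, the third barely so, at 4.64, 5.25 and 2.99 CPM against 1.81, 1.95 and 2.98 CPM (0.93 ± 0.48, adjusted p = 0.109). The remaining groups overlapped: Dohh-/- TH1 cells held 14.1, 10.4 and 5.07 CPM against 7.12, 8.77 and 6.17 CPM and TH17 cells 3.75, 2.33 and 0.453 CPM against 1.37, 1.85 and 0.577 CPM. Odc-/- TH1 cells held 17.4, 11.6, 9.57 and 14.8 CPM against 10.1, 10.2, 9.87 and 19.4 CPM. TH2 cells held 25.7, 41.8 and 30.0 CPM against 26.6, 34.0, 29.4 and 42.1 CPM, and TH17 cells 7.31, 1.58, 4.66 and 1.95 CPM against 4.06, 3.51, 3.96 and 5.69 CPM. Cbs, which makes cystathionine, fell in TH17 cells of both tables, from few counts: 6 reads in the Odc-/- libraries against 29 in WT (ratio 0.248, 95% counting interval 0.0843 to 0.609) and 5 reads in the Dohh-/- libraries against 37 in WT (ratio 0.146, interval 0.0449 to 0.373). Without Odc-/- replicate 1 the first ratio was 0.112. All 5 Dohh-/- reads were in replicate 3, and that call was lost without WT replicate 2 (-2.21, adjusted p = 0.0931), Dohh-/- replicate 1 (-1.93, adjusted p = 0.109) or Dohh-/- replicate 2 (-1.80, adjusted p = 0.131). Pycr1, the last enzyme of proline synthesis, rose in Dohh-/- TH2 cells (1.13 ± 0.31, adjusted p = 0.00488) and was at -0.87 to -0.45 in Odc-/- cells, with no call; the Dohh-/- call was lost without WT replicate 3 (1.0) or Dohh-/- replicate 1 (0.89).

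Among the transporters, Slc7a11, the cystine and glutamate exchanger that feeds glutathione synthesis, was called higher in all 8 comparisons. In Odc-/- TH1 cells it was at 2.42, 2.65, 3.94 and 3.22 CPM against 1.16, 0.711, 0.581 and 1.48 CPM (1.63 ± 0.42, adjusted p = 0.00177). In TH2 cells it was at 3.31, 4.71 and 3.49 CPM against 0.612, 0.267, 0.401 and 1.17 CPM (2.64 ± 0.46, adjusted p = 2.71e-05). These are low levels, but no deficient library overlapped with WT in any subset of either table. TH17 cells held 4.78, 5.13, 10.5 and 5.07 CPM against 3.71, 1.05, 2.83 and 2.56 CPM (1.31 ± 0.35, adjusted p = 0.00315), a call lost without Odc-/- replicate 3 (0.97), and Treg cells held 4.23, 4.82, 6.73 and 3.13 CPM against 2.12, 0.827, 0.922 and 1.05 CPM (1.93 ± 0.38, adjusted p = 8.96e-05). In the Dohh table WT cells were at or near the floor, so that the rise is given as the ratio of summed counts per total, with an interval for counting error. In TH1 cells Slc7a11 was at 6.34, 7.73 and 0.882 CPM against 0.331, 0.299 and 0.224 CPM, a ratio of 16.3 (8.30 to 36.5). In TH2 cells it was at 6.71, 18.3 and 10.9 CPM against 0, 0.423 and 0 CPM, a ratio of 92.0 (35.6 to 340), and of 55.4 without WT replicate 1; the 4 WT counts were all in WT replicate 2. TH17 and Treg cells held the highest single libraries, with 7.61, 43.1 and 90.5 CPM against 1.13, 0.585 and 1.73 CPM in TH17 cells, a ratio of 37.4 (26.8 to 54.0), and of 24.5 without Dohh-/- replicate 3. Treg cells held 3.54, 16.4 and 41.2 CPM against 0.226, 0.122 and 0.0852 CPM, a ratio of 138 (58.7 to 426), and of 68.1 without Dohh-/- replicate 3 and 207 without WT replicate 1. Adjusted p-values in the Dohh table were 0.00761, 0.000504, 0.000175 and 0.000101 in this order.

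The Slc7a11 level moved with the summed myeloid markers across the Dohh-/- TH17 and Treg libraries, in which the replicate with the lowest sum (597 and 371 CPM) also held the least Slc7a11 (7.61 and 3.54 CPM). In Dohh-/- TH2 cells the sums of 30.3, 852 and 107 CPM stood in the same order as Slc7a11, at 6.71, 18.3 and 10.9 CPM. In Odc-/- TH17 and Treg cells replicate 3 held both the highest sum (630 and 807 CPM) and the highest Slc7a11 (10.5 and 6.73 CPM). With only replicate 1, the library of the lowest myeloid sum, kept in Dohh-/- TH17 and Treg cells, the difference from WT was 2.74 in TH17 and 4.42 in Treg cells on the log2 scale, a value of 1 library with no spread of its own. In Odc-/- TH1 and TH2 cells Slc7a11 was higher while the myeloid sums were 9.66 to 21.5 CPM and 11.5 to 30.6 CPM, against 7.99 to 19.6 CPM and 16.3 to 21.5 CPM in WT. The single myeloid markers shifted more than their sum: over the 10 tested, the median log2 fold change was 1.95 in TH1 (2 called higher, 1 lower) and 2.07 in TH2 cells (1 and 1), and of the 12 markers 2 to 4 were at 0 in the deficient TH1 libraries against 5 to 7 in WT, and 1 to 2 against 3 to 6 in TH2 cells. In the same Odc-/- libraries other markers were higher without overlap: the basophil and mast cell sums were 18.9 to 215 CPM in TH1 and 52.1 to 92.9 CPM in TH2 cells, against 4.13 to 7.11 CPM and 4.94 to 10.35 CPM in WT, and the B cell sums 296 to 1379 CPM and 635 to 949 CPM, against 37.3 to 109.7 CPM and 96.6 to 254 CPM. In the 3 Dohh-/- TH1 libraries the myeloid sums were 7.36, 247 and 26.1 CPM in replicate order, against 23.9 to 24.5 CPM in WT, and Slc7a11 was highest in the second and lowest in the third. Their basophil and mast cell sums were 68.6, 364 and 355 CPM, against 4.14 to 6.28 CPM in WT. The part of these cells in the Slc7a11 levels was not tested.

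**Figure D3:**
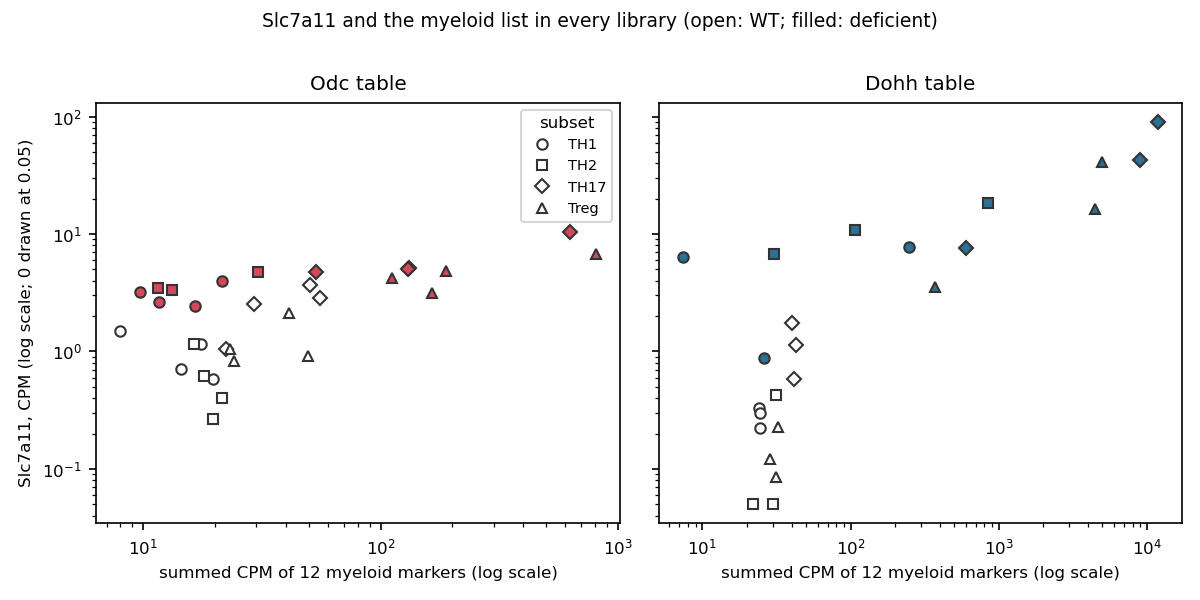
Slc7a11 level (CPM, log axis) of each library against the summed CPM of the 12 myeloid markers (log axis), with tables, genotypes and subsets marked; libraries at 0 are drawn at the lower edge. The Dohh-/- TH17 and Treg libraries spread along both axes up to 90.5 CPM of Slc7a11, while the Odc-/- TH1 and TH2 libraries lie above WT at overlapping myeloid sums, though the median myeloid marker was higher there by 1.95 and 2.07 on the log2 scale.

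Slc7a5, the leucine importer LAT1, rose in Odc-/- TH2 (1.40 ± 0.31) and Treg cells (1.40 ± 0.30, and 2.04 without WT replicate 4) and in Dohh-/- TH2 (1.97 ± 0.21) and Treg cells (2.02 ± 0.21). Slc3a2, the heavy chain that both Slc7a5 and Slc7a11 need at the membrane, rose in Dohh-/- TH1 (1.06 ± 0.19), TH2 (1.38 ± 0.19) and Treg cells (1.43 ± 0.19), the TH1 call being lost without Dohh-/- replicate 1 (0.97) or Dohh-/- replicate 2 (0.86). Slc1a5, a glutamine importer, rose in Odc-/- TH1 (1.13 ± 0.17) and TH2 cells (1.22 ± 0.18) and in Dohh-/- TH2 cells (1.40 ± 0.14). Slc6a9, the glycine transporter GlyT1, rose in Odc-/- TH2 cells (1.13 ± 0.37) and in Dohh-/- TH2 (1.94 ± 0.36), TH17 (1.73 ± 0.38) and Treg cells (1.09 ± 0.37). Its Odc-/- call was lost without Odc-/- replicate 3 (0.80), and its Dohh-/- Treg call without WT replicate 1 (0.98), WT replicate 2 (1.02, adjusted p = 0.0571) or Dohh-/- replicate 1 (0.75). With only replicate 1 kept, the Dohh-/- TH17 value was 1.23 (adjusted p = 0.0686). Of the 6 transporters, 5 were thus called higher in Dohh-/- TH2 cells, where 14.3% of all genes were. None was called lower in any comparison, while 7.21% to 15.2% of all genes were. With 6 genes, none lower is near these shares.

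Of the 4 surface, secreted and other members, the 3 tested were called only lower, as were 25.5% of all genes, and Gdf15 was not tested. Ndrg1, a cytoplasmic stress protein that is also known to be induced by hypoxia, had the largest mean decrease and fell in 7 of the 8 comparisons. In Odc-/- TH1 cells it was at 428, 51.7, 77.3 and 89.0 CPM against 1074, 948, 1065 and 632 CPM (-2.53 ± 0.60, adjusted p = 0.00103, and -3.69 without Odc-/- replicate 1). In TH2 cells it was at 78.6, 222 and 162 CPM against 804, 733, 781 and 594 CPM (-2.24 ± 0.66, adjusted p = 0.00558). Replicate 1, present in the other 3 subsets, was the highest deficient library in each of them. TH17 cells held 230.2, 25.9, 45.1 and 56.0 CPM against 537, 574, 538 and 318 CPM (-2.46 ± 0.60, adjusted p = 0.00198, and -3.54 without replicate 1), and Treg cells 84.7, 24.9, 42.7 and 33.1 CPM against 679, 642, 678 and 325 CPM (-3.65 ± 0.64, adjusted p = 3.32e-05). In Dohh-/- TH1 cells Ndrg1 was at 38.2, 25.6 and 79.3 CPM against 306, 246 and 233 CPM (-2.45 ± 0.38, adjusted p = 2.72e-05). All libraries of both tables were below WT, also in Dohh-/- TH2 cells, at 230.4, 146 and 101 CPM against 348, 261 and 300.2 CPM (-0.93 ± 0.36, adjusted p = 0.0399), the comparison in which it was not called. TH17 cells held 62.5, 36.2 and 31.9 CPM against 374, 359 and 451 CPM (-3.18 ± 0.39, adjusted p = 1.94e-06), and Treg cells 68.1, 44.6 and 25.5 CPM against 239, 225 and 217 CPM (-2.30 ± 0.38, adjusted p = 3.84e-05).

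Vldlr, the receptor for very low density lipoprotein, was called lower in all 8 comparisons, from -1.19 ± 0.33 in Dohh-/- Treg cells to -3.74 ± 0.92 in Odc-/- Treg cells. In Odc-/- Treg cells it fell to 12.4, 0.482, 2.59 and 0.782 CPM from 63.9, 51.0, 67.1 and 33.7 CPM, and in Odc-/- TH1 cells to 70.4, 1.98, 3.94 and 8.40 CPM from 134, 139.6, 119 and 85.6 CPM. Replicate 1 was again the highest, and without it the value was -5.39 in Treg, -4.67 in TH1 and -3.79 in TH17 cells. The Odc-/- TH2 call (-2.09 ± 0.85, adjusted p = 0.0377) and the TH17 call (-2.19 ± 0.80, adjusted p = 0.0268) had adjusted p-values near the threshold and were lost in most fits without 1 library: in TH2 cells without WT replicate 1 (-2.05, adjusted p = 0.0572), WT replicate 2 (-2.10, adjusted p = 0.0524), WT replicate 3 (-2.12, adjusted p = 0.0503), Odc-/- replicate 2 (-1.79, adjusted p = 0.136), Odc-/- replicate 3 (-2.44, adjusted p = 0.05) or Odc-/- replicate 4 (-2.13, adjusted p = 0.0871), and in TH17 cells without WT replicate 1 (-2.13, adjusted p = 0.0501), WT replicate 2 (-2.11, adjusted p = 0.0509), Odc-/- replicate 2 (-1.81, adjusted p = 0.0781), Odc-/- replicate 3 (-1.96, adjusted p = 0.0751) or Odc-/- replicate 4 (-1.93, adjusted p = 0.0766). The Dohh-/- TH2 call was lost without Dohh-/- replicate 3 (-0.92), and the Dohh-/- Treg value was -1.03 (adjusted p = 0.0829) with only replicate 1 kept. Stc2, the secreted protein stanniocalcin 2, fell in Odc-/- Treg cells (-1.80 ± 0.44, adjusted p = 0.00102), Dohh-/- TH17 cells (-2.0 ± 0.37, adjusted p = 0.000172) and Dohh-/- TH2 cells (-1.17 ± 0.33, adjusted p = 0.0066), the last call being lost without Dohh-/- replicate 3 (-0.97).

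**Figure D4:**
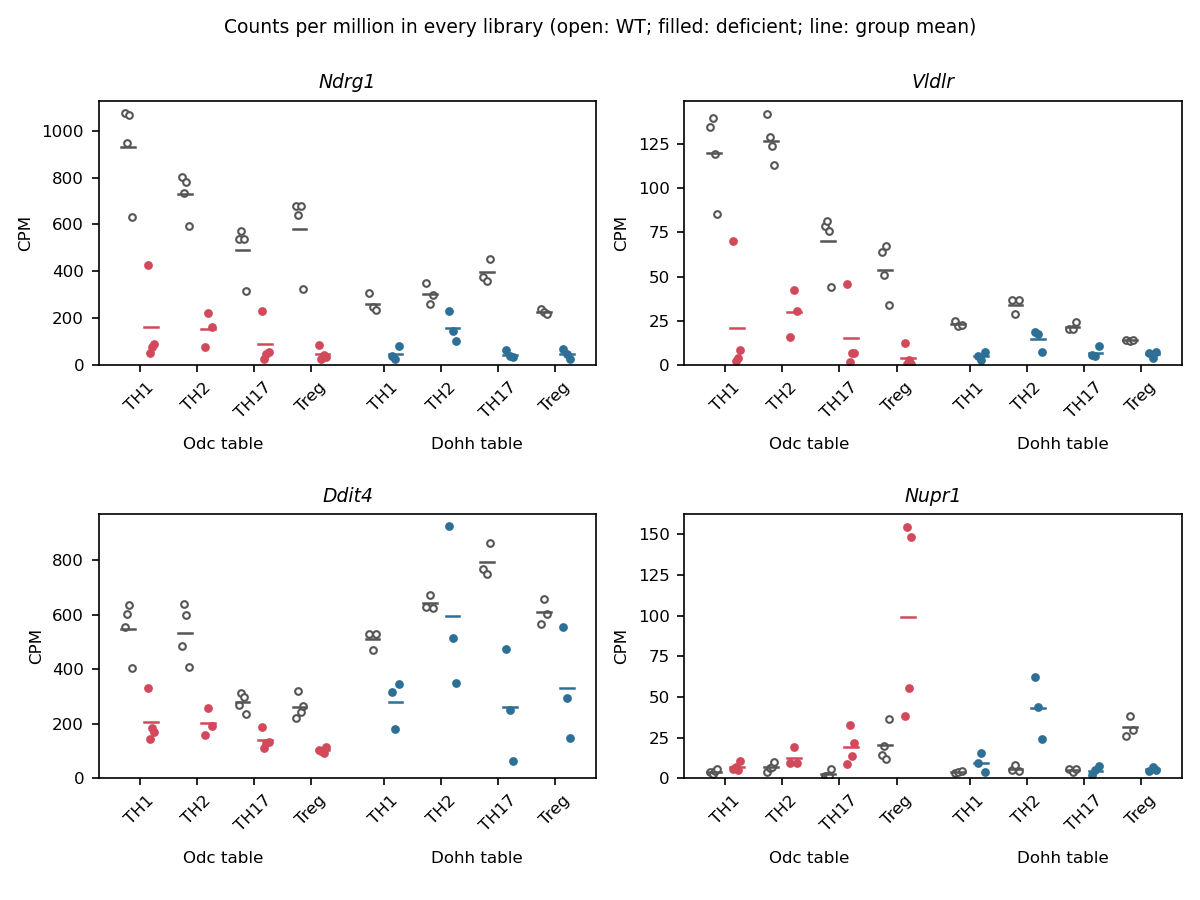
Level of Ndrg1, Vldlr, Ddit4 and Nupr1 in every library (CPM, linear axis from 0), by table and subset, with 1 point a library (open, WT; filled, deficient) and a line at the group mean. Ndrg1 is below WT in every deficient library, and Nupr1 is above WT in Odc-/- Treg cells (38.1 to 155 CPM) and below WT in Dohh-/- Treg cells (4.64 to 6.87 CPM).

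The effect of deficiency differed between the 4 subsets in 6 members among Odc-/- cells, where 34.8% of all genes differed, and in 15 members among Dohh-/- cells, where 17.9% did (edgeR's quasi-likelihood interaction test). The 6 were Cebpb, Cth, Ddit3, Mthfd2, Sesn2 and Slc1a5. The 15 were Aldh18a1, Atf3, Atf5, Ddit3, Eif4ebp1, Jdp2, Mthfd1l, Mthfd2, Ndrg1, Nupr1, Ppp1r15a, Slc1a5, Slc7a5, Stc2 and Trib3. Asns (adjusted p = 0.246), Chac1 (0.209) and Slc7a11 (0.645) did not pass this test in the Dohh table. These counts depended on the replicates: they ran from 1 to 12 and from 3 to 20 when all libraries of 1 replicate number were left out, with 1 and 3 without replicate 2. Libraries of the same number and genotype deviated together across subsets (r over 0.1 in 44 of 45 pairs for Odc and 28 of 36 for Dohh). With the replicate number of each genotype as a block, the effect on 24 members differed between subsets in Odc-/- cells (52.9% of all genes) and that on 18 members in Dohh-/- cells (19.0%). The 6 and the 15 were among them. The 18 added in Odc-/- cells were Asns, Atf3, Atf4, Chac1, Eif4ebp1, Gpt2, Mthfd1l, Ndrg1, Nupr1, Phgdh, Psph, Shmt2, Slc3a2, Slc6a9, Slc7a5, Stc2, Trib3 and Vldlr, and the 3 added in Dohh-/- cells were Gpt2, Pycr1 and Sesn2.

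The 2 deficiencies were compared by the difference of their effects in a fit of both tables, each effect taken against the WT libraries of its own table. The effects differed in 4 members in TH1 cells (18.5% of all genes differed), 11 in TH2 cells (15.7%), 8 in TH17 cells (21.4%) and 19 in Treg cells (26.2%). Of these, 4, 10, 4 and 15 had the higher effect in Dohh-/- cells. In TH1 cells they were Atf4 (Odc minus Dohh, -0.88 ± 0.21, adjusted p = 0.00217), Trib3, Eif4ebp1 and Psph. Atf4 also differed in Treg cells (-0.78 ± 0.21, adjusted p = 0.00376), and its difference in TH2 cells was -0.49 ± 0.21 (adjusted p = 0.115). In TH2 cells the largest differences among the 11 were in Chac1 (-2.31 ± 0.55, adjusted p = 0.00275) and Trib3 (-2.05 ± 0.50, adjusted p = 0.00332), and Ppp1r15a alone had the higher effect in Odc-/- cells (0.74 ± 0.20). The difference in Slc7a11 was larger still but less precise in TH2 cells (-3.70 ± 1.39, adjusted p = 0.0625), where it did not pass, and passed in TH17 cells (-4.10 ± 0.90, adjusted p = 0.00086). Treg cells held the most differences: Slc7a11 (-5.07 ± 1.17, adjusted p = 0.00091), Asns (-2.30 ± 0.47, adjusted p = 0.000219), Chac1 (-2.92 ± 0.58), Gpt2 (-2.90 ± 0.50), Cth (-2.93 ± 0.66) and Trib3 (-2.06 ± 0.48) had the higher effect in Dohh-/- cells. Nupr1 (4.75 ± 0.69, adjusted p = 1.24e-06), Ddit3 (1.75 ± 0.33, adjusted p = 5.83e-05), Cebpb and Ppp1r15a had the higher effect in Odc-/- cells. Nupr1 (3.06 ± 0.77) and Ddit3 (1.17 ± 0.33) differed in the same direction in TH17 cells, with Sesn2 and Ppp1r15a. With all libraries of 1 replicate number left out these counts ran from 0 to 7 in TH1, 1 to 15 in TH2, 2 to 9 in TH17 and 11 to 19 in Treg cells, each lowest without replicate 2. The 2 tables were made from different mice, so that table and deficiency cannot be told apart beyond what each table's own WT controls remove.

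**Figure D5:**
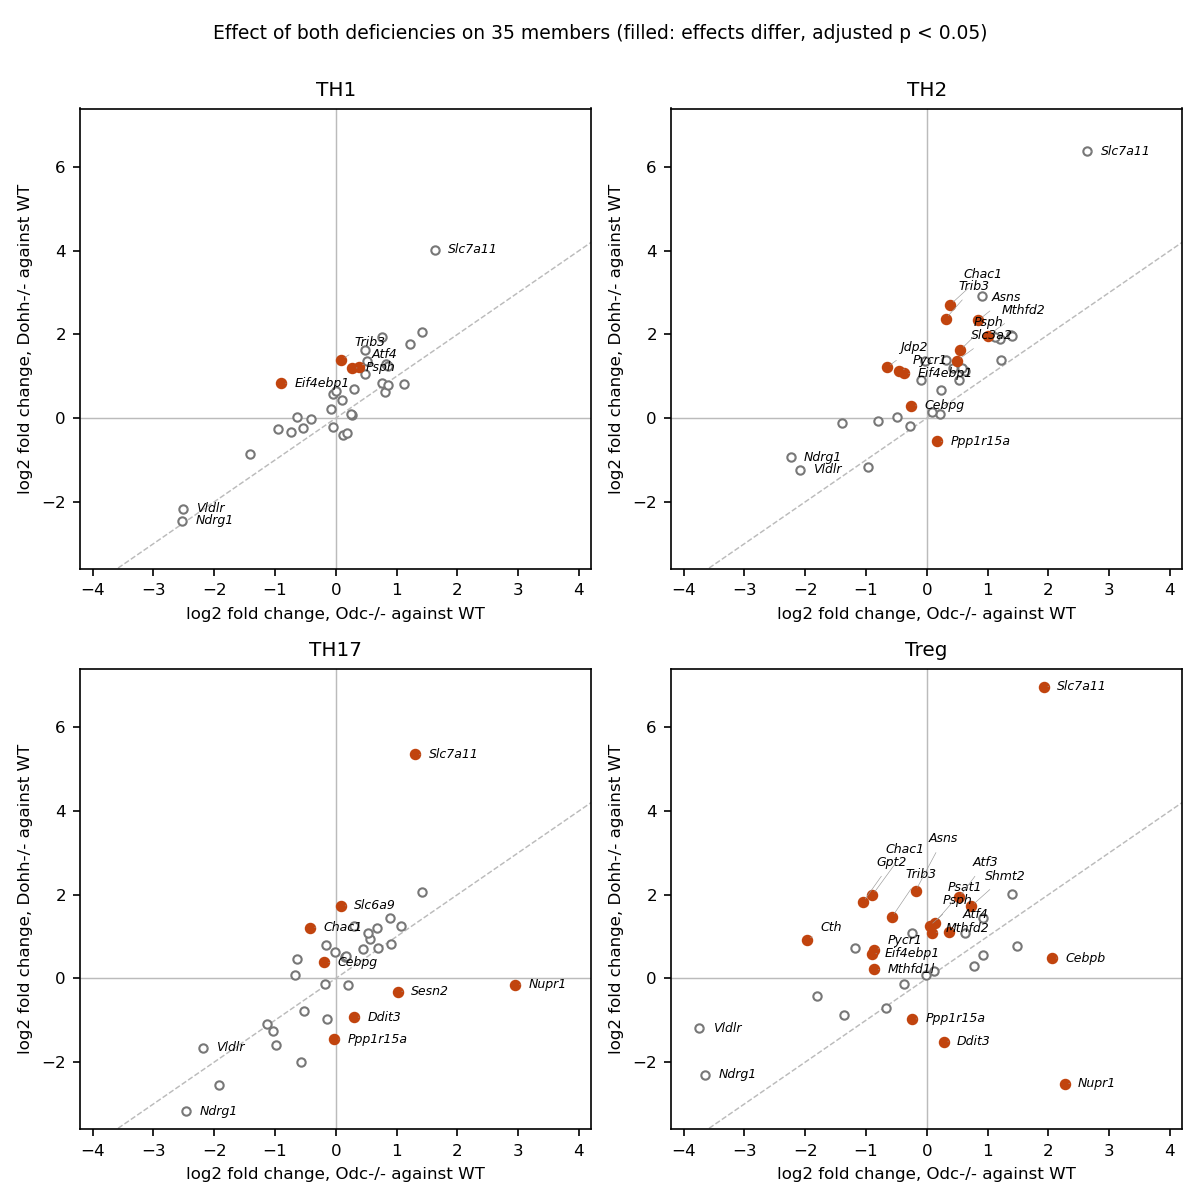
Log2 fold change in Odc-/- cells (horizontal axis) against that in Dohh-/- cells (vertical axis) for the 35 tested genes, 1 panel a subset, with the line of equal effects and with genes whose effects differ in the test marked. In Treg cells 19 genes are marked and 15 of them lie above the line, among them Asns, Chac1, Gpt2 and Cth, while Nupr1 and Ddit3 lie below it.

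Other genes of the pathway were read from 4 lists. The share of all genes called is given above for each comparison and direction, and the counts below are read against it. Among 17 genes upstream of ATF4 (the eIF2 kinases and their regulators Gcn1l1, Impact, Dele1 and Oma1, eIF2, its exchange factor eIF2B, and the phosphatase subunit Ppp1r15b), 2, 2, 0 and 3 were called higher in Odc-/- TH1, TH2, TH17 and Treg cells and 5, 2, 0 and 3 in Dohh-/- cells, with 1 called lower, in Dohh-/- TH17 cells. The share called higher was above that of all genes in Dohh-/- TH1 cells and near or below it in most other comparisons. Eif2b3, a subunit of eIF2B, had the largest mean difference (1.07) and was called higher in 5 comparisons. Of the 4 eIF2 kinases (Eif2ak1 to Eif2ak4), none was called higher in any comparison and only Eif2ak3, the kinase PERK, was called, lower in 1. Of 12 aminoacyl-tRNA synthetases, which charge tRNA with amino acids, 1, 4, 0 and 0 were called higher in Odc-/- cells and 6, 7, 1 and 6 in Dohh-/- cells, in the same order of subsets, and none was called lower. These shares were above that of all genes in Odc-/- TH2 and Dohh-/- TH1, TH2 and Treg cells and below it in the other 4 comparisons. Wars, the tryptophan enzyme, had the largest mean (1.11). Of 12 genes of the unfolded protein response of the endoplasmic reticulum, 2, 1, 3 and 3 were called higher in Odc-/- cells and 6, 7, 5 and 7 in Dohh-/- cells, shares above that of all genes except in Odc-/- TH2 cells. Creld2 was called higher in all 8 comparisons, Sdf2l1, a chaperone of the lumen, in 7 with the largest mean (2.0), and Manf in 6. Of 15 further ATF4 targets, 14 of them tested, 1, 2, 1 and 2 were called higher and 3, 3, 3 and 5 lower in Odc-/- cells, and 2, 4, 2 and 3 higher and 2, 2, 4 and 3 lower in Dohh-/- cells. The shares called lower were above those of all genes in the 4 Odc-/- subsets and in Dohh-/- TH17 and Treg cells and near them in Dohh-/- TH1 and TH2 cells, and the shares called higher were above in Dohh-/- TH2 cells and near those of all genes in the other comparisons. Bcat1, which transaminates branched-chain amino acids, was called higher in 7 comparisons. Vegfa, the angiogenic factor that is also induced by hypoxia, and Klhl24 were called lower in all 8, Klhl24 with the largest mean (-2.25).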

How the data were processed

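RNA of CD4+ T cells was extracted on day 4 of polarization, and libraries were made with the TruSeq stranded mRNA kit and sequenced on a HiSeq 3000. The submitters' notes name STAR, featureCounts, DESeq2 and deepTools, without versions, and the mm10 build. The deposited values are raw counts of reads per gene from featureCounts, made by the authors without normalization, in 1 table for each deleted gene; all 55 columns were used. A further Odc-/- TH2 sample (replicate 1) was not analysed here.

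Versioned Ensembl identifiers were matched to symbols in GENCODE M21 (GRCm38), which gave a symbol for 47224 of 47937 genes. The tables were analysed 1 at a time in R 4.3.3 with edgeR 4.0.16: filterByExpr over the 8 groups (13839 and 13897 genes kept), TMM scaling and robust quasi-likelihood fits with 1 mean per group. Deficient libraries were compared with WT libraries of the same subset, and a call needed a change of more than 2-fold together with an adjusted p below 0.05 (Benjamini-Hochberg, all genes tested). Differences between subsets were tested by the interaction, and differences between deficiencies by a contrast in a joint fit of the tables, each at an adjusted p below 0.05. CPM are per TMM-scaled total, and RPKM divide them by exon length. The code was tested on simulated counts.

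The 36 genes and all lists were chosen with earlier results of these data known. Values in every library are given for Atf4, Ddit3, Chac1, Trib3 and Asns, for the gene of the largest absolute mean log2 fold change in each of 6 roles, and for genes called in both directions; of the other lists, genes called in 1 direction in at least 6 of the 8 comparisons and the gene of the largest mean are named. Vldlr was added for a figure and for its 8 calls. Alternatives were RLE size factors, no filter, a mean count of at least 50, the replicate block, a test of the 2-fold change, no fold threshold, only the 2 groups compared, DESeq2 1.42.0, and leaving out each library.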

Additional observations from a re-analysis of the deposited data

Results flagged for a closer look

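In groups of 4 Odc-table libraries, a library was set apart when its gap to the nearest other, divided by the range, was above Dixon's 95% critical value. Of 91 groups examined over the 13 genes given library by library, 16 had such a gap, and chance gives about 1 in 20. In WT replicate 4 there were 10: Chac1 in Treg cells (0.939), Trib3 in TH17 cells (0.905), Asns in TH2 cells (0.945), Nupr1 in TH17 cells (0.965), Phgdh in TH1 (0.868), TH2 (0.838) and TH17 cells (0.891), Ndrg1 in TH17 (0.857) and Treg cells (0.895), and Cth in TH1 cells (0.961). In Odc-/- replicate 1 there were 5: Asns in TH17 cells (0.848), Phgdh in TH1 cells (0.834), Ndrg1 in TH1 (0.901) and TH17 cells (0.853), and Gpt2 in Treg cells (0.934). The remaining 1 was Slc7a11 in TH17 cells of Odc-/- replicate 3 (0.940). The same replicate number stood apart in several genes and subsets, and whether this reflects the mice, the cultures or the libraries was not tested.

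The effect of deficiency differed between subsets for 6 of these genes by the interaction test of edgeR. In the Odc table these were Ddit3 (adjusted p = 0.00166) and Cth (adjusted p = 0.0156). With the replicate number of each genotype as a block, Asns, Atf4, Chac1, Eif4ebp1, Gpt2, Ndrg1, Nupr1, Phgdh and Trib3 also differed there. In the Dohh table they were Ddit3 (adjusted p = 0.0176), Trib3 (adjusted p = 0.000157), Nupr1 (adjusted p = 3.1e-05), Ndrg1 (adjusted p = 0.0197) and Eif4ebp1 (adjusted p = 0.00405), and with the block also Gpt2.

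The Odc effect minus the Dohh effect, on the log2 scale, differed from 0 in the contrast of both tables as follows. Atf4 was at -0.88 in TH1 and -0.78 in Treg cells. Ddit3 was at 1.17 in TH17 and 1.75 in Treg cells. Chac1 was at -2.31 in TH2, -1.69 in TH17 and -2.92 in Treg cells. Trib3 was at -1.33 in TH1, -2.05 in TH2 and -2.06 in Treg cells. Asns was at -1.47 in TH2 and -2.30 in Treg cells. Nupr1 was at 3.06 in TH17 and 4.75 in Treg cells. Slc7a11 was at -4.10 in TH17 and -5.07 in Treg cells, the subsets in which the myeloid markers of the Dohh-/- libraries were highest. Eif4ebp1 was at -1.76 in TH1, -1.42 in TH2 and -1.53 in Treg cells. Gpt2 was at -2.90 and Cth at -2.93 in Treg cells.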

How the results depend on the processing

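Of the 111 calls, 2 were lost and 1 gained with RLE size factors, 6 and 1 without a filter, 1 and 1 with a mean count of at least 50, 8 and 1 with only the 2 groups compared, and 3 and 1 with DESeq2. None changed direction, and 81 were kept in every fit leaving out 1 library, while 32 tests without a call gained one in at least 1 such fit. A test of the 2-fold change itself left 1, 1, 1 and 7 members called in Odc-/- TH1, TH2, TH17 and Treg cells and 6, 11, 6 and 10 in Dohh-/- cells, with 6.52%, 9.53%, 4.06% and 10.9% and 12.2%, 10.5%, 15.6% and 17.8% of all genes called. Without a fold threshold there were 19, 19, 17 and 20 in Odc-/- cells (56.8%, 59.2%, 47.8% and 59.8% of all genes). In Dohh-/- cells there were 19, 27, 27 and 23 (50%, 45.3%, 52.0% and 53.4%). Leaving out WT replicate 4 and Odc-/- replicate 1, added after the data were seen and picked on values of the members, gave 13 in TH1 and 17 in Treg cells. Same-numbered deficient and WT libraries of a subset shared only a number (correlation of deviations over 0.1 in 7 of 15 Odc and 1 of 12 Dohh pairs, median 0.0066 and -0.012), and the replicate block lost 2 calls and gained 2. It moved the Odc interaction count from 6 to 24 and the TH1 count of differences between deficiencies from 4 to 7, as did RLE size factors and a mean count of at least 50 (7 each). The cause of these shifts was not tested. With 1 library left out, counts ran from 7 to 11, 8 to 11, 5 to 13 and 10 to 15 in the Odc-/- and 11 to 18, 22 to 25, 15 to 17 and 17 to 21 in the Dohh-/- comparisons. With all libraries of 1 replicate number left out, counts of members that differ between WT subsets ran from 13 to 18 and 12 to 19, interaction counts from 1 to 12 and 3 to 20, and counts of differences between deficiencies from 0 to 7, 1 to 15, 2 to 9 and 11 to 19. Depth limits Slc7a11, Cbs and Gdf15, which lie near the floor in WT cells.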
